A study of Homo sapiens with 18 samples.

Results

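Raji cells with low GFP were compared with Raji cells with high GFP at 72 h, over all genes. The comparison uses 6 of the 18 RNA libraries of the series, 3 from GFP low cells at 72 h and 3 from GFP high cells at 72 h. The other libraries hold the same GFP fractions at 24 and 48 h and were used here to share the estimate of spread and to test whether the 72 h difference stood apart. Raji is an established human Burkitt lymphoma line, a B cell tumour line with features of germinal centre cells. Both groups carry the genotype Smarca4+/+ in the labels, and the series is described as a test of SMARCA4 breakdown through an auxin-inducible degron. The sources used here do not say what GFP marks, how the 2 fractions were obtained or when the clock of 72 h started. In 1 library set the column names write GFP together with BRG1, a synonym of SMARCA4. Every library is of 1 cell line. Separate cultures are not mentioned, so the p-values describe the spread among these libraries, and that spread may be technical.

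In an auxin-inducible degron, auxin brings a tagged protein to a ubiquitin ligase, and the proteasome then destroys it. The transcript of the tagged gene is not the target. SMARCA4 is the ATPase of the BAF (SWI/SNF) complexes, which slide and evict nucleosomes and keep enhancers accessible. In germinal centres B cells cycle between a dark zone, where they divide and mutate their antibody genes, and a light zone, where they take up antigen, receive CD40 and B cell receptor signals that act in part through NF-kB, and are selected to return, to leave as memory cells or to become plasma cells.

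The 6 libraries at 72 h held 27257876 to 51820226 counts in genes. Levels below are in CPM, the counts of a gene after scaling every library to a common total, and are given in the order unnumbered set, set 1 and set 2 wherever 3 are listed. Libraries with the same set number deviated together from their group means, so each set holds 1 GFP low and 1 GFP high library that pair. The B lineage was clear in both groups: all 12 marker genes of the list, among them CD79A and MS4A1, were measured, and summed to 4626 to 4850 CPM in GFP low libraries and 5096 to 5266 CPM in GFP high libraries.

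At 72 h, 2123 genes were higher and 2222 lower in GFP low than in GFP high cells, out of 16474 tested (edgeR quasi-likelihood test, Benjamini-Hochberg adjusted p under 0.05). That is 12.9% of genes higher, 13.5% lower and 26.4% in either direction. Most differences were small: the median size among called genes was 0.21 on the log2 scale, and 166 genes were higher and 152 lower by 2-fold or more. The libraries varied little, with a common biological coefficient of variation of 3.49%, so that small differences passed. With a test for changes beyond 1.2-fold in place of any change, 639 genes passed. Called genes lay on the same side in all 3 library sets in 4318 of 4345 cases. The GFP low and GFP high libraries did not overlap for 4209 called genes, while 38.8% of all tested genes showed no overlap.

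**Figure D1:**
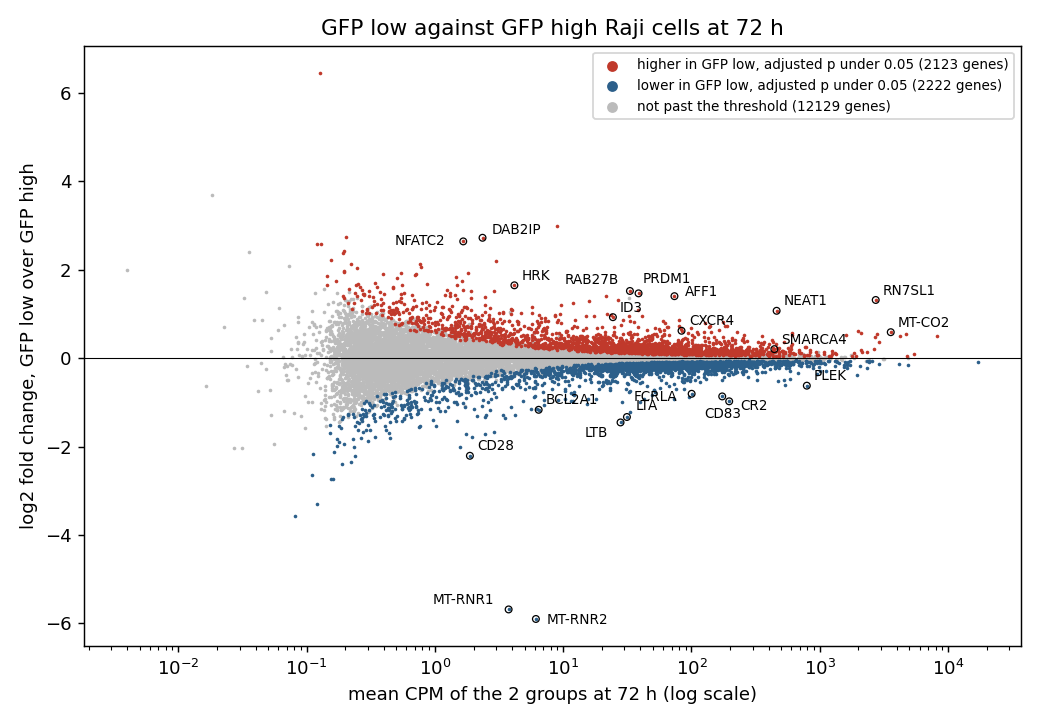
Each point is 1 of 16474 tested genes, with the mean CPM of both groups at 72 h on a log axis and the log2 fold change of GFP low over GFP high on the vertical axis; red and blue points passed an adjusted p under 0.05, and circled points carry their names. Called genes spread about evenly above and below the line, 2123 higher and 2222 lower, and few abundant genes moved by more than 2-fold.

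SMARCA4 itself, on chromosome 19 from 10960932 to 11079426 on the plus strand (hg38), was read at 466, 465 and 490 CPM in GFP low libraries and at 406, 405 and 423 CPM in GFP high libraries. Its transcript was therefore higher in every GFP low library than in any GFP high library, by a log2 fold change of 0.20 ± 0.03 (SE, adjusted p = 2.2e-05). With the trend on gene length (summed over exons) and GC content removed, the log2 fold change was 0.10 (adjusted p = 0.0036). SMARCA2, the other ATPase that can drive BAF complexes, averaged 49.5 ± 1.15 CPM in GFP low and 46.7 ± 0.40 CPM in GFP high libraries (SD, n = 3 each) and did not pass (log2 fold change 0.08 ± 0.03, adjusted p = 0.059). Of 28 BAF subunit genes tested, 10 rose and 5 fell, with a median of 0.08 on the log2 scale against 0.00 over all tested genes. The median was 0.03 with the length and GC trend removed. Without the GFP low library of set 2, 6 rose. PHF10, a subunit particular to the PBAF form, rose by 0.25 ± 0.03 (adjusted p = 2.1e-06), and BICRAL, of the noncanonical form, rose by 0.27 ± 0.03 (adjusted p = 2.0e-06). ACTL6A, an actin-like subunit, averaged 78.8 ± 0.70 CPM in GFP low and 88.6 ± 1.31 CPM in GFP high libraries and fell by 0.17 on the log2 scale (adjusted p = 0.00018), and PBRM1, the bromodomain subunit of PBAF, fell by 0.11 (adjusted p = 0.0034).

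Among protein-coding genes averaging 1 CPM or more with no overlap, the largest increases were those of DAB2IP and NFATC2. DAB2IP, a scaffold that switches off Ras, held 3.26, 4.51 and 4.52 CPM in GFP low libraries and 0.489, 0.603 and 0.723 CPM in GFP high libraries. NFATC2, a calcium-dependent transcription factor of lymphocytes, held 2.92, 2.83 and 2.83 CPM in GFP low libraries and 0.519, 0.483 and 0.391 CPM in GFP high libraries. Both genes were close to the detection floor in GFP high cells and clearly expressed in every GFP low library, with log2 fold changes of 2.72 ± 0.18 (adjusted p = 2.0e-10) for DAB2IP and 2.64 ± 0.17 (adjusted p = 1.1e-10) for NFATC2. Other genes that rose at low levels were MLC1, a membrane protein known from astrocytes (1.92 ± 0.17), CPLX1, a complexin of vesicle fusion (1.84 ± 0.21), GLRA3, a glycine receptor subunit (1.66 ± 0.19), HRK, a death-promoting BH3-only protein (1.65 ± 0.12), and ARID3B, a DNA-binding factor (1.52 ± 0.13), with adjusted p between 1.1e-09 and 1.1e-06.

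PRDM1, RAB27B and AFF1 rose at higher levels. PRDM1 encodes Blimp-1, the factor that drives B cells to become plasma cells. It held 54.6, 59.4 and 56.5 CPM in GFP low libraries and 20.2, 20.5 and 20.8 CPM in GFP high libraries. RAB27B, a GTPase that docks secretory vesicles, held 48.7, 50.8 and 47.8 CPM in GFP low libraries and 18, 17.6 and 15.9 CPM in GFP high libraries. AFF1, a scaffold of the super elongation complex that releases paused RNA polymerase II, held 107, 108 and 106 CPM in GFP low libraries and 41.1, 39.1 and 40.9 CPM in GFP high libraries. Each was well over 2-fold higher in GFP low cells with no overlap, at log2 fold changes of 1.47 ± 0.04 for PRDM1, 1.52 ± 0.04 for RAB27B and 1.40 ± 0.03 for AFF1 (adjusted p = 1.1e-16, 2.6e-16 and 2.6e-18). DUSP5, a phosphatase that inactivates ERK, averaged 51.7 ± 1.34 CPM in GFP low and 24.2 ± 1.09 CPM in GFP high libraries (1.1 ± 0.04, adjusted p = 5.2e-15). LPP, an adhesion-site adaptor whose locus neighbours BCL6, rose by 0.70 ± 0.03 (adjusted p = 1.1e-13).

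Among the same protein-coding genes, the largest decreases were those of CD28, ATRN and MARCHF1, all at low levels. CD28, a costimulatory receptor better known from T cells, held 0.862, 0.633 and 0.523 CPM in GFP low libraries and 2.63, 3.20 and 3.40 CPM in GFP high libraries (log2 fold change -2.21 ± 0.21, adjusted p = 5.5e-08). ATRN, the transmembrane protein attractin, averaged 0.614 ± 0.128 CPM in GFP low and 2.54 ± 0.27 CPM in GFP high libraries (-2.02 ± 0.18, adjusted p = 1.8e-08). MARCHF1, an enzyme that tags MHC class II and CD86 with ubiquitin so that they leave the surface, averaged 0.859 ± 0.091 CPM in GFP low and 3.01 ± 0.31 CPM in GFP high libraries (-1.78 ± 0.14, adjusted p = 2.2e-09). SSTR3, a somatostatin receptor, and DNASE1L3, a secreted nuclease, each fell by 1.71 on the log2 scale (adjusted p = 2.8e-07 and 3.8e-07). VCAM1, an adhesion receptor, fell by 1.31 (adjusted p = 2.5e-06) and IL4I1, an amino acid oxidase of activated B cells, by 1.33 (adjusted p = 7.5e-06).

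Other genes that fell were at higher levels. GRAP, an adaptor of receptor signalling, averaged 20.1 ± 0.60 CPM in GFP low and 46.3 ± 3.29 CPM in GFP high libraries (-1.21 ± 0.06, adjusted p = 4.1e-12). PLEK, or pleckstrin, averaged 624 ± 5.37 CPM in GFP low and 961 ± 14.4 CPM in GFP high libraries (-0.62 ± 0.02, adjusted p = 9.8e-15). TMSB4X, which binds actin monomers, averaged 427 ± 11.4 CPM in GFP low and 651 ± 10.6 CPM in GFP high libraries (-0.61 ± 0.02, adjusted p = 2.5e-14). CD53, a tetraspanin, averaged 269 ± 2.23 CPM in GFP low and 376 ± 2.85 CPM in GFP high libraries (-0.49 ± 0.02, adjusted p = 1.1e-14). PRKDC, the catalytic subunit of DNA-dependent protein kinase, held 2170, 2183 and 2158 CPM in GFP low libraries and 2518, 2526 and 2500.0 CPM in GFP high libraries, a small but even decrease (-0.21 ± 0.01, adjusted p = 1.0e-10).

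NF-kB is a family of dimeric factors, built among others from the NFKB1 and REL products, that NFKBIA holds in the cytoplasm until CD40, B cell receptor or cytokine signals release it. Its targets include its own subunits and inhibitor, which form feedback loops, as well as cytokine and survival genes. Of 32 genes of this pathway and its targets tested, 18 fell and 5 rose in GFP low cells at 72 h, a median of -0.15 on the log2 scale against 0.00 over all genes. Without the unnumbered or set 1 GFP high library, or the set 1 or set 2 GFP low library, 2 or 3 rose. The promoters of 5 of the genes that fell are shown because they hold GGG, any 2 bases and then TTTCC, a pattern close to the classical NF-kB element, on 1 of the strands. Each stretch is read 5′ to 3′ on the strand of the gene, from RefSeq promoters on GRCh38.p14. It ends before the RefSeq start of transcription and has the match in capitals.

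LTB, chr6:31582447-31582566, minus strand: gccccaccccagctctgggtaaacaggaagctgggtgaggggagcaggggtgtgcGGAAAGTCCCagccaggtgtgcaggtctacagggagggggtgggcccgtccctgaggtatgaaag
BIRC3, chr11:102317234-102317353, plus strand: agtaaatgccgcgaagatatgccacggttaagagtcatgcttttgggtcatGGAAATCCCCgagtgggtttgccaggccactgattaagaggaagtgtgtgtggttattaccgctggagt
NFKB1, chr4:102501239-102501358, plus strand: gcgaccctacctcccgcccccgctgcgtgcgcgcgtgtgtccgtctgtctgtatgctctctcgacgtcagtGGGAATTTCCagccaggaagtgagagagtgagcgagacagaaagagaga
REL, chr2:60881454-60881573, plus strand: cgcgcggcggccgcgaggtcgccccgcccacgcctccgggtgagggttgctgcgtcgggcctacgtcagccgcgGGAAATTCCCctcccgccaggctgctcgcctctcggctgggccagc
NFKBIA, chr14:35404766-35404885, minus strand: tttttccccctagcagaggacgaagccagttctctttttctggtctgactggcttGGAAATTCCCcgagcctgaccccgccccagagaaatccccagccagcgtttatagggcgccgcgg

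The match begins 86 bases before the RefSeq start site in LTB, 199 in BIRC3, 49 in NFKB1, 46 in REL and 81 in NFKBIA. The pattern was searched on both strands from 250 bases before to 50 after the start site. It occurred in 7 of 27 promoters found for tested members of the list (25.9%) and in 5 of 14 promoters of the members that fell (35.7%). It was in 2.18% of 10115 promoters of tested genes and in 1.92% of all 27305 promoters in the table. Among all genes called at 72 h, it was in 3.0% of 1679 promoters of those lower and 1.4% of 1538 of those higher, which was not tested. The list was chosen as this pathway and its targets, so its own higher share does not bear on the 72 h difference. The other 2 members with a match were TRAF3, an inhibitor of the noncanonical branch, which was higher in GFP low cells (log2 fold change 0.15 ± 0.03, adjusted p = 0.00014; 0.09 with the length and GC trend removed), and TNFAIP3, the feedback inhibitor A20. TNFAIP3 did not pass (-0.04 ± 0.04, adjusted p = 0.55), but passed at -0.11 without the GFP low library of set 2 (adjusted p = 0.040). LTA, TNF, CD83 and BCL2A1, which fell, held no match in this window. A match is a description of the letters and does not show that a factor binds there.

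The ligands LTB, LTA and TNF fell. LTB, LTA and TNF lie side by side on chromosome 6 (hg38), LTA at 31572054 to 31574324, TNF at 31575565 to 31578336 and LTB at 31580525 to 31582522. These spans come with the deposited counts. That of LTB begins upstream of the RefSeq start site, so part of the LTB stretch above, with its match, lies inside the span. LTB, the membrane anchor of the lymphotoxin complex, held 14.2, 14.5 and 16 CPM in GFP low libraries and 41.5, 39.3 and 42.4 CPM in GFP high libraries. LTA, which LTB anchors, held 18.7, 16.9 and 17.8 CPM in GFP low libraries and 46.7, 44.1 and 44.1 CPM in GFP high libraries. Both were more than 2-fold lower in every GFP low library than in any GFP high library, with log2 fold changes of -1.46 ± 0.06 (adjusted p = 8.0e-14) for LTB and -1.33 ± 0.05 (adjusted p = 5.2e-15) for LTA. TNF, named after its value was seen, held 9.05, 9.98 and 11.2 CPM in GFP low libraries and 21.7, 20.04 and 20.7 CPM in GFP high libraries (-1.04 ± 0.07, adjusted p = 2.6e-10).

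The subunits and feedback genes fell less. NFKB1, the p50 precursor, averaged 91.1 ± 2.54 CPM in GFP low and 107 ± 0.40 CPM in GFP high libraries (log2 fold change -0.24 ± 0.03, adjusted p = 3.5e-06). REL averaged 122 ± 1.16 CPM in GFP low and 140 ± 2.39 CPM in GFP high libraries (-0.19 ± 0.03, adjusted p = 0.00020). NFKBIA averaged 99.3 ± 3.62 CPM in GFP low and 113 ± 1.38 CPM in GFP high libraries (-0.19 ± 0.03, adjusted p = 3.2e-05). BIRC3, an inhibitor of apoptosis and of the noncanonical branch, averaged 912 ± 24.1 CPM in GFP low and 1113 ± 25.2 CPM in GFP high libraries (-0.29 ± 0.03, adjusted p = 4.4e-08). NFKB1, REL and BIRC3 were chosen for their promoters after their values were seen. RELA, the p65 subunit, went the other way, at 61.9 ± 3.83 CPM in GFP low and 53.9 ± 3.57 CPM in GFP high libraries (0.20 ± 0.05, adjusted p = 0.0032), and its groups overlapped by library.

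Of 20 light zone markers tested, 13 fell and 2 rose, with a median of -0.39 on the log2 scale. CD83, which stabilises MHC class II at the surface and is the usual light zone marker, held 124, 122 and 123 CPM in GFP low libraries and 223, 225 and 225 CPM in GFP high libraries. The gap between the groups was far wider than the spread within them (log2 fold change -0.87 ± 0.02, adjusted p = 4.1e-18). CD40, the receptor through which T cells help B cells, held 39.2, 38.9 and 38.2 CPM in GFP low libraries and 64.2, 62.7 and 64.2 CPM in GFP high libraries (-0.72 ± 0.04, adjusted p = 5.4e-12). Its adaptor TRAF1 averaged 58.6 ± 1.08 CPM in GFP low and 88.1 ± 2.22 CPM in GFP high libraries (-0.59 ± 0.04, adjusted p = 1.3e-10). BCL2A1, a survival protein of the BCL2 family, averaged 3.98 ± 0.17 CPM in GFP low and 8.90 ± 0.82 CPM in GFP high libraries (-1.17 ± 0.08, adjusted p = 6.2e-10). The surface molecules SEMA7A, a semaphorin (-0.92 ± 0.06), SLAMF1, a self-binding receptor (-0.76 ± 0.04), FCER2, the low-affinity IgE receptor (-0.63 ± 0.05), and the CD28 ligands CD80 (-0.53 ± 0.04) and CD86 (-0.41 ± 0.04) fell as well, with adjusted p between 4.3e-12 and 6.5e-08. The 2 that rose were RGS1, which dampens chemokine receptor signalling (0.70 ± 0.03, adjusted p = 1.2e-12), and MYC (0.24 ± 0.04, adjusted p = 6.8e-05). Members of this list also sit in the NF-kB list, so the 2 counts are not independent.

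**Figure D2:**
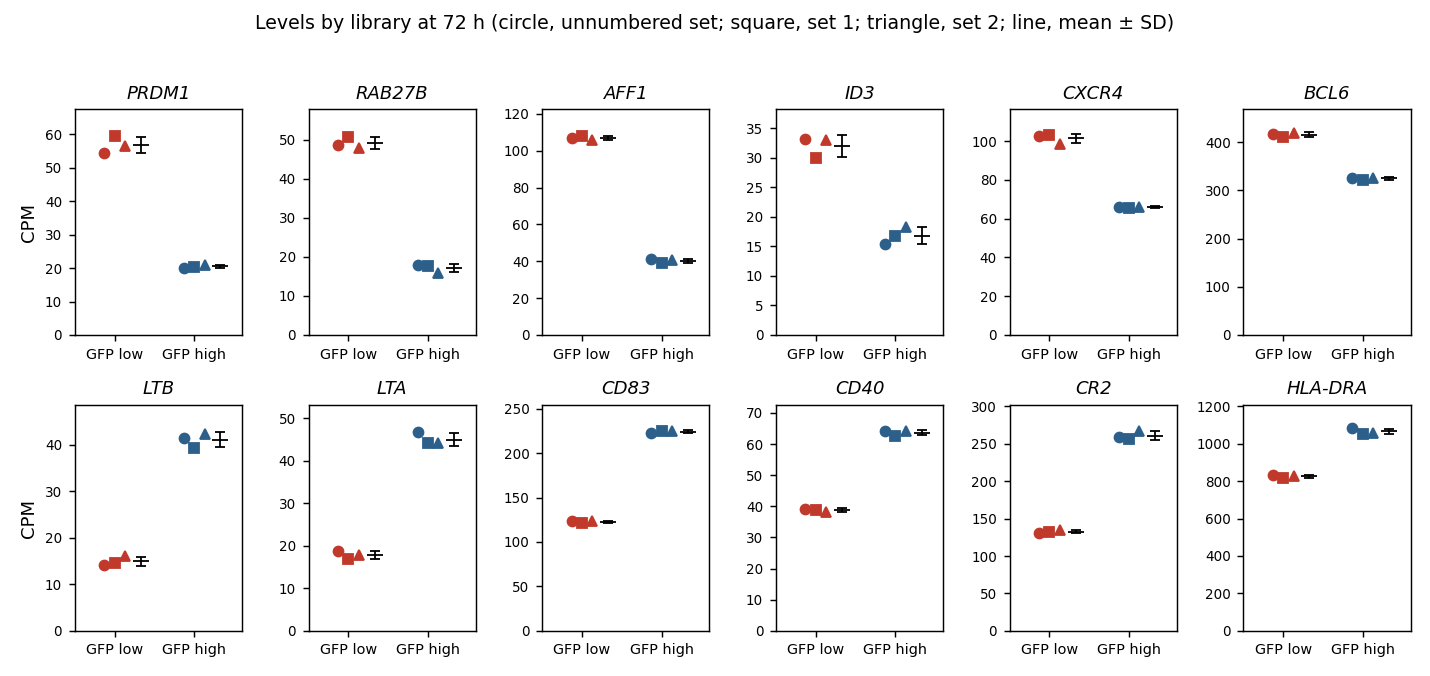
Levels in CPM of 12 genes in each library at 72 h, GFP low in red and GFP high in blue, with symbols for the library sets and a black line and bars for the mean and SD of 3 libraries; every axis starts at 0. The groups do not overlap for any of these genes: PRDM1, RAB27B, AFF1, ID3, CXCR4 and BCL6 are higher, and LTB, LTA, CD83, CD40, CR2 and HLA-DRA are lower, in GFP low cells.

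Genes of antigen presentation were mostly lower in GFP low cells. In the MHC class II list 10 of 17 tested genes fell and 1 rose (median -0.19), and in the MHC class I list 13 of 16 fell and none rose (median -0.17, edgeR). HLA-DRA, the alpha chain of the HLA-DR heterodimer, held 834, 817 and 826 CPM in GFP low libraries and 1082, 1053 and 1059 CPM in GFP high libraries (log2 fold change -0.37 ± 0.02, adjusted p = 4.2e-13). HLA-DQA1 fell by 0.36 on the log2 scale (adjusted p = 4.2e-07) and HLA-DMB, a chaperone of peptide loading, by 0.23 (adjusted p = 6.4e-06). CD74, the invariant chain that guides class II molecules, fell by 0.15 (adjusted p = 0.00020), or by 0.24 with the length and GC trend removed. RFX5, a transcription factor of class II promoters, was the gene that rose (0.15 ± 0.03, adjusted p = 0.00019). In class I, HLA-B averaged 152 ± 3.00 CPM in GFP low and 203 ± 7.71 CPM in GFP high libraries (-0.42 ± 0.03, adjusted p = 1.1e-09). TAP1, a subunit of the peptide transporter, fell by 0.41 (adjusted p = 3.2e-06), and ERAP2, which trims peptides, fell by 0.54 (adjusted p = 7.8e-06). HLA genes are near-identical copies of each other in parts, and how reads that map to several of them were counted is not given in the sources used here.

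In the list of B cell receptor signalling 14 of 30 genes fell and 7 rose (median -0.11). PTPN6, the phosphatase SHP-1, averaged 52.4 ± 2.18 CPM in GFP low and 81.0 ± 5.53 CPM in GFP high libraries (log2 fold change -0.63 ± 0.04, adjusted p = 3.3e-10). CD22, a receptor that recruits it, averaged 605 ± 11.1 CPM in GFP low and 759 ± 10.04 CPM in GFP high libraries (-0.33 ± 0.02, adjusted p = 5.8e-10). Other members that fell were RASGRP3, an exchange factor for Ras, by 0.55 (adjusted p = 1.7e-12) and PRKCB, the kinase that leads to NF-kB, by 0.31 (adjusted p = 2.0e-10). CR2, the complement receptor CD21 that lowers the threshold of the B cell receptor, held 131, 132 and 134 CPM in GFP low libraries and 259, 257 and 267 CPM in GFP high libraries (-0.98 ± 0.02, adjusted p = 1.0e-17). The 3 GFP low libraries stood well apart from the 3 GFP high ones. Higher genes were PLCG2, the phospholipase below the receptor (0.13 ± 0.02, adjusted p = 3.3e-05), MALT1, a protease of the NF-kB arm (0.18 ± 0.05, adjusted p = 0.0045), and NFATC1 (0.21 ± 0.04, adjusted p = 0.00042; 0.11 with the length and GC trend removed), beside NFATC2. The receptor's own chains CD79A and CD79B averaged 366 ± 14.4 and 376 ± 19.1 CPM in GFP low and 347 ± 13.4 and 368 ± 12.9 CPM in GFP high libraries and did not pass (adjusted p = 0.17 and 0.66). With the library set as a block both passed, CD79A at 0.08 (adjusted p = 7.1e-06) and CD79B at 0.03 (adjusted p = 0.0061), and both were higher in GFP low cells in all 3 sets. CD79A also passed with no filter on low counts (adjusted p = 0.043).

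Among 28 B cell transcription factors, 14 rose and 3 fell (median 0.14, or 0.08 with the length and GC trend removed); 9 rose when either the GFP high set 1 or the GFP low set 2 library was left out. ID3, which blocks E proteins and is often mutated in Burkitt lymphoma, held 33.2, 29.9 and 33 CPM in GFP low libraries and 15.4, 16.7 and 18.2 CPM in GFP high libraries (log2 fold change 0.93 ± 0.07, adjusted p = 1.1e-09). TCF3, the E protein that ID3 blocks, averaged 505 ± 27.8 CPM in GFP low and 404 ± 20.3 CPM in GFP high libraries (0.32 ± 0.05, adjusted p = 9.0e-05). FOXO1, a factor of the dark zone, averaged 68.0 ± 1.6 CPM in GFP low and 44.7 ± 1.25 CPM in GFP high libraries (0.60 ± 0.04, adjusted p = 3.1e-11). BCL6, the repressor that sets up the germinal centre state and opposes PRDM1, held 417, 409 and 419 CPM in GFP low libraries and 326, 322 and 326 CPM in GFP high libraries (0.36 ± 0.02, adjusted p = 2.1e-11). BCL6 and PRDM1 were thus both higher in the same libraries. SPIB, an ETS factor (-0.40 ± 0.04, adjusted p = 3.6e-07), BCL11A (-0.30 ± 0.03, adjusted p = 9.2e-08) and IRF8 (-0.18 ± 0.02, adjusted p = 2.1e-06) were the members that fell.

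The rise of PRDM1 was not shared by the whole plasma cell list, in which 4 of 16 genes rose and 4 fell (median 0.03). DERL3, which moves misfolded proteins out of the endoplasmic reticulum, averaged 19.7 ± 1.52 CPM in GFP low and 10.3 ± 0.38 CPM in GFP high libraries (log2 fold change 0.94 ± 0.09, adjusted p = 3.1e-08), and FKBP11 rose by 0.18 ± 0.04 (adjusted p = 0.0019). CD38, an ectoenzyme of plasma cells and of germinal centre cells, averaged 35.5 ± 0.38 CPM in GFP low and 63.6 ± 1.03 CPM in GFP high libraries (-0.84 ± 0.04, adjusted p = 3.0e-13). SLAMF7, a surface receptor, fell by 0.95 (adjusted p = 5.1e-09) and HERPUD1, of the endoplasmic reticulum, by 0.24 (adjusted p = 2.1e-07). Of 10 memory B cell markers, 5 fell, among them CR2, BANK1 (-0.48 ± 0.03, adjusted p = 7.1e-10) and CD27 (-0.30 ± 0.04, adjusted p = 1.2e-05), and 1 rose, GPR183 (2 rose with the library set as a block).

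Of 22 dark zone markers tested, 11 fell and 6 rose (median -0.06). All 6 that rose are surface proteins or transcription factors. CXCR4, the chemokine receptor that holds cells in the dark zone, held 102, 103 and 98.5 CPM in GFP low libraries and 66.2, 65.4 and 66.0 CPM in GFP high libraries (log2 fold change 0.62 ± 0.03, adjusted p = 2.0e-13). S1PR2, which confines B cells to the germinal centre, averaged 220 ± 8.75 CPM in GFP low and 168 ± 3.36 CPM in GFP high libraries (0.39 ± 0.04, adjusted p = 5.7e-08). MME, the surface enzyme CD10, rose by 0.27 ± 0.03 (adjusted p = 3.7e-07), and FOXO1, TCF3 and FOXP1 rose too. The transcription factor LMO2 fell by 0.40 (adjusted p = 1.6e-06). Genes of cell division in the same list fell, among them TOP2A, which untangles DNA (-0.28 ± 0.03, adjusted p = 9.9e-08), CCNB1, the mitotic cyclin (-0.25 ± 0.03, adjusted p = 3.1e-06), and MKI67 (-0.15 ± 0.02, adjusted p = 6.2e-05). GPR183, a receptor that steers B cells to the follicle edge, averaged 11.4 ± 0.96 CPM in GFP low and 6.39 ± 0.80 CPM in GFP high libraries (0.82 ± 0.09, adjusted p = 2.3e-07), and in the list of homing and positioning receptors 7 of 20 rose and 7 fell. ITGAL, the integrin chain of LFA-1, and its ligand ICAM1 were both lower, by 0.27 (adjusted p = 0.00015) and 0.37 (adjusted p = 1.9e-08) on the log2 scale.

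Cell death genes of the BCL2 family moved on both sides, 7 rising and 3 falling of 17 tested (median 0.03). Among those that rose were BH3-only killers. HRK held 6.56, 6.26 and 6.21 CPM in GFP low libraries and 1.92, 1.66 and 2.38 CPM in GFP high libraries. BMF averaged 38.4 ± 1.46 CPM in GFP low and 26.3 ± 1.03 CPM in GFP high libraries (log2 fold change 0.55 ± 0.05, adjusted p = 1.2e-08). BCL2L11, or BIM, averaged 404 ± 5.37 CPM in GFP low and 321 ± 2.12 CPM in GFP high libraries (0.33 ± 0.02, adjusted p = 6.3e-11). The survival protein BCL2 rose by 0.38 ± 0.05 (adjusted p = 1.4e-06), while the survival proteins BCL2A1, BCL2L1 (-0.15 ± 0.03, adjusted p = 0.0029) and MCL1 (-0.12 ± 0.02, adjusted p = 4.4e-05) fell. Of 22 p53 targets, 6 fell and 4 rose. CDKN1A, the CDK inhibitor p21, averaged 24.5 ± 1.01 CPM in GFP low and 41.3 ± 2.02 CPM in GFP high libraries (-0.75 ± 0.05, adjusted p = 6.3e-11). FAS, a death receptor, averaged 38.5 ± 1.40 CPM in GFP low and 63.3 ± 1.03 CPM in GFP high libraries (-0.72 ± 0.04, adjusted p = 2.6e-12). TP53INP1, which promotes autophagy and death, went up, at 22.6 ± 0.20 CPM in GFP low and 9.23 ± 0.11 CPM in GFP high libraries (1.29 ± 0.05, adjusted p = 1.4e-13). CDKN1B, the CDK inhibitor p27, rose by 0.42 ± 0.05 (adjusted p = 5.3e-06).

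**Figure D3:**
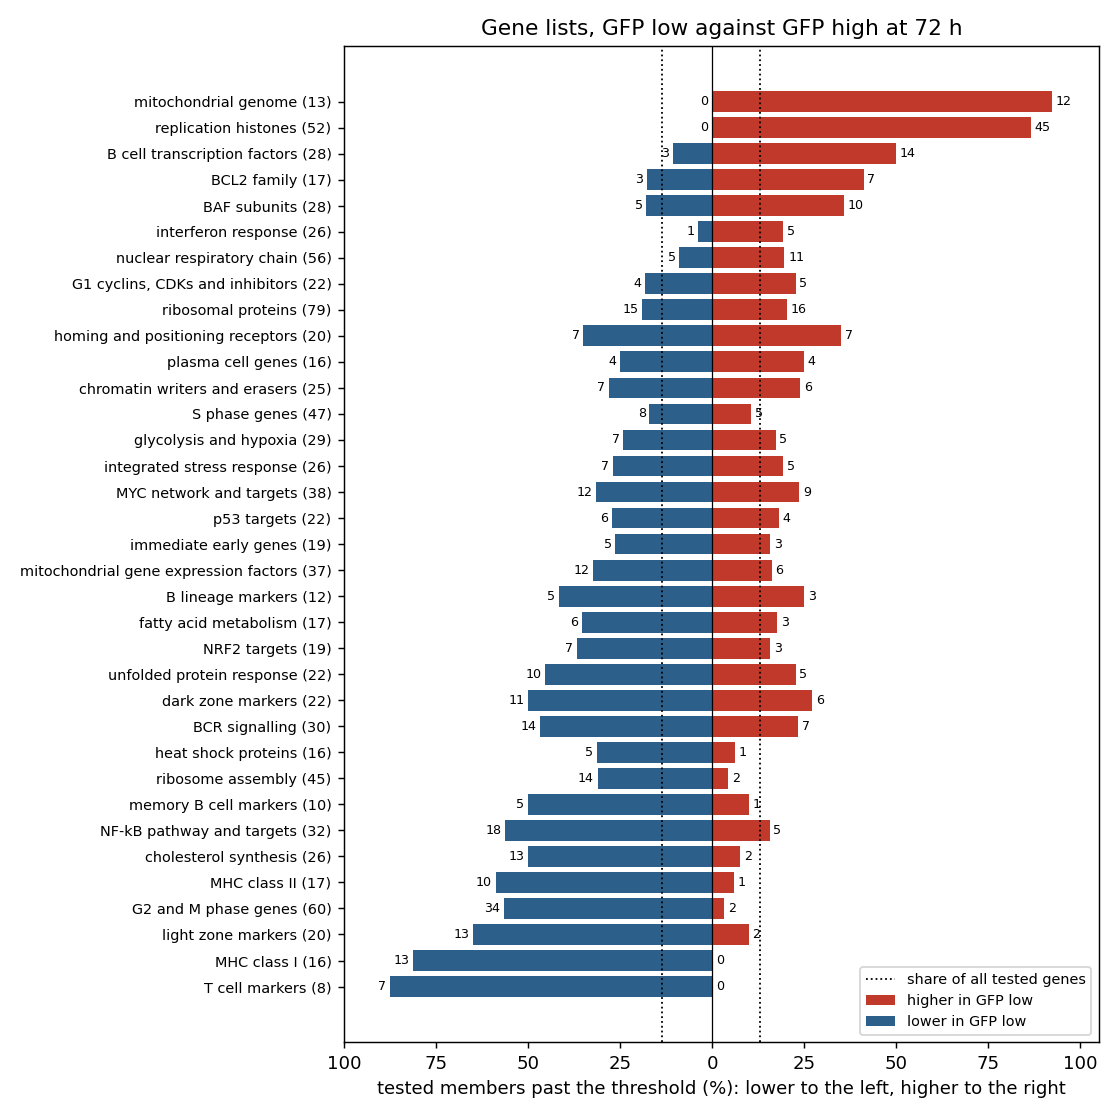
Share in percent of the tested members of each gene list that passed an adjusted p under 0.05 at 72 h, higher in GFP low in red to the right and lower in blue to the left, with the number of members at the bar ends, the number tested in brackets and dotted lines at the shares over all genes, 12.9% and 13.5%. The mitochondrial genome and replication histone lists stand at the red end with 12 of 13 and 45 of 52 genes higher, and the T cell, MHC class I and light zone lists at the blue end with 7 of 8, 13 of 16 and 13 of 20 lower; lists with fewer than 8 tested genes are left out.

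The mitochondrial genome took a larger share of counts in GFP low cells at 72 h. Its genes held 3.98%, 3.81% and 3.86% of counts in GFP low libraries and 2.79%, 2.67% and 2.67% in GFP high libraries. The groups did not overlap, and the difference of means was 1.17 percentage points (1.14 to 1.19 within library sets; exact permutation test, two-sided, p = 0.10, the smallest that 3 against 3 libraries allow). Of the 13 protein-coding genes, which encode subunits of the respiratory chain and of ATP synthase, 12 rose, with a median of 0.53 on the log2 scale. MT-CO2, a subunit of cytochrome c oxidase, held 4296, 4258 and 4322 CPM in GFP low libraries and 2878, 2809 and 2880 CPM in GFP high libraries (log2 fold change 0.59 ± 0.02, adjusted p = 1.8e-15). MT-ATP6, of ATP synthase, rose by 0.61 ± 0.05 (adjusted p = 2.1e-09) and MT-CYB, of complex III, by 0.49 ± 0.03 (adjusted p = 6.2e-11). MT-ND6, the only one of these genes on the light strand, averaged 177 ± 11.1 CPM in GFP low and 182 ± 5.57 CPM in GFP high libraries and did not pass (-0.04 ± 0.05, adjusted p = 0.67). In bulk RNA, fewer cells of a kind and less RNA per cell cannot be told apart.

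The earlier times showed the opposite direction. At 24 h the mitochondrial share was lower in GFP low cells by a mean of 0.86 percentage points and at 48 h by 0.80 points. At 24 h 12 of the 13 genes fell (28.5% of all tested genes fell at that time and 29.3% rose, 57.9% in all), and at 48 h all 13 fell (13.2% of genes fell and 10.6% rose, 23.8% in all). The difference between the 72 h and the 48 h values was called, upwards, for 12 of the 13 genes (5.19% of all genes), with a median of 0.93 on the log2 scale, and that between 72 h and 24 h for 12 (22.2% of all genes), with a median of 0.98. With the length and GC trend removed, the median against 24 h was 0.60, with 12 genes higher and 1 lower. Nuclear genes of the respiratory chain were balanced at 72 h: of 56 tested, 11 were higher and 5 lower (median 0.01). With the library set as a block, 16 rose and 12 fell, and without the GFP low unnumbered or GFP high set 1 library 3 fell. Of 37 nuclear genes that transcribe, process or translate mitochondrial RNA, 6 rose (3 without the GFP low set 2 library) and 12 fell (median -0.03). Without any 1 of the GFP high unnumbered and set 1 libraries and the GFP low set 2 library 5 or 6 fell. TFB1M, which methylates mitochondrial ribosomal RNA, fell by 0.18 (adjusted p = 0.0017).

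Counts of mitochondrial ribosomal and of other abundant noncoding RNAs also differed between the groups. The mitochondrial ribosomal RNAs had 4, 7 and 3 counts of MT-RNR1 in GFP low libraries and 275, 224 and 354 counts in GFP high libraries. MT-RNR2 had 7, 6 and 7 counts in GFP low libraries and 462, 366 and 563 counts in GFP high libraries. These counts ran against the protein-coding genes of the same genome, and the groups were far apart. The libraries were depleted of ribosomal RNA, so the counts are what was left after depletion and need not follow levels in the cells. Over all ribosomal RNA genes the share of counts overlapped, at 0.028%, 0.028% and 0.031% in GFP low and 0.025%, 0.029% and 0.036% in GFP high libraries. Among abundant noncoding RNAs, 3 of 7 genes were tested and 3 rose. Their sum was 7689 to 7840 CPM in GFP low and 4144 to 4524 CPM in GFP high libraries. RN7SK, RN7SL2, RMRP and RPPH1 had no counts. RN7SL1, the RNA of the signal recognition particle, held 3912, 3824 and 3945 CPM in GFP low libraries and 1657, 1312 and 1719 CPM in GFP high libraries (log2 fold change 1.32 ± 0.13, adjusted p = 7.4e-08). NEAT1, the nuclear RNA that builds paraspeckles, averaged 625 ± 4.2 CPM in GFP low and 297 ± 4.16 CPM in GFP high libraries, the smallest p of all noncoding genes named here (1.07 ± 0.02, adjusted p = 1.3e-19). MALAT1 rose by 0.36 ± 0.02 (adjusted p = 3.5e-10). The part of RNA handling in the other results was not tested.

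Replication histone genes, whose transcripts lack a poly(A) tail and are made in S phase, were higher in GFP low cells: 45 of 52 rose and none fell (edgeR), with a median of 0.46. Summed over the list they held 8208, 8042 and 8541 CPM in GFP low libraries and 6107, 6042 and 6398 CPM in GFP high libraries. H2BC11, a histone H2B gene, held 222, 218 and 234 CPM in GFP low libraries and 131, 125 and 129 CPM in GFP high libraries (log2 fold change 0.81 ± 0.03, adjusted p = 4.1e-14). H4C3 rose by 0.74 ± 0.04 (adjusted p = 9.5e-12) and H3C12 by 0.79 ± 0.04 (adjusted p = 1.2e-12). At 48 h 35 rose with a median of 0.20, beside 10.6% of all tested genes. At 24 h 48 fell with a median of -1.02, beside 28.5% of all tested genes. The difference between 72 h and 24 h was called upwards for 47 (22.2% of all genes). That between 72 h and 48 h was called upwards for 28 (5.19% of all genes), or 16 with the length and GC trend removed. Histone genes are near-identical copies, so how reads were shared among them cannot be known from the counts.

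**Figure D4:**
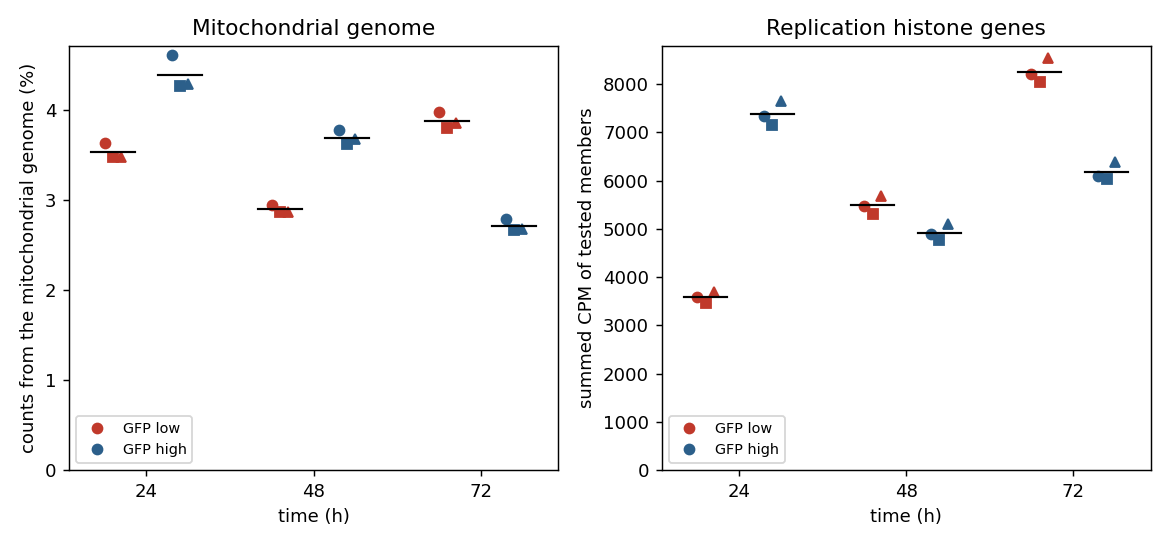
Left, percent of counts from the mitochondrial genome, and right, summed CPM of 52 replication histone genes, in each of the 18 libraries at 24, 48 and 72 h, GFP low in red beside GFP high in blue, with a symbol for each library set and a line at the mean of 3. The mitochondrial share is lower in GFP low cells at 24 and 48 h and higher at 72 h, and the histone sum is lower at 24 h and higher at 48 and 72 h.

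Of 60 G2 and M phase genes 34 fell and 2 rose at 72 h (median -0.14), while 13.5% of all tested genes fell. At 48 h 47 fell, beside 13.2% of all genes, and at 24 h 47 fell, beside 28.5% of all genes. HMMR, a spindle protein, averaged 135 ± 4.92 CPM in GFP low and 175 ± 4.52 CPM in GFP high libraries (log2 fold change -0.37 ± 0.03, adjusted p = 1.1e-08). CDK1, the mitotic kinase, fell by 0.32 (adjusted p = 1.4e-08) and PLK1, another mitotic kinase, by 0.18 (adjusted p = 0.00036). Of 47 S phase genes 5 were higher and 8 lower (median -0.01; 9 and 13 with the library set as a block, and 4 or 5 fell without the unnumbered library of either group or the GFP high library of set 1, and 2 or 3 rose without the GFP high unnumbered or GFP low set 2 library). PCNA, the sliding clamp of DNA polymerase, fell by 0.14 (adjusted p = 9.4e-05), while DTL, which marks licensing factors for destruction, rose by 0.19 ± 0.03 (adjusted p = 0.00019). MYC, the driver of Burkitt lymphoma, averaged 500 ± 20.9 CPM in GFP low and 424 ± 18 CPM in GFP high libraries. Of 38 genes of its network and targets 9 rose and 12 fell (14 rose with the block, and 6 or 7 fell without the GFP high unnumbered or set 1 library). TERT, the telomerase subunit, rose by 0.52 ± 0.11 (adjusted p = 0.00075), MNT, an antagonist of MYC, by 0.35 ± 0.05 (adjusted p = 1.8e-05), and ODC1, the first enzyme of polyamine synthesis, fell by 0.18 (adjusted p = 5.1e-07).

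Ribosomal protein genes were balanced at 72 h, with 16 of 79 higher and 15 lower and a median of 0.01, or 37 higher and 27 lower with the library set as a block. At 24 h all 79 had been lower in GFP low cells, beside 28.5% of all tested genes, with a median of -0.71. The difference between 72 h and 24 h was called for all 79. At 72 h RPS21 rose by 0.20 ± 0.02 (adjusted p = 2.0e-06). In cholesterol synthesis 13 of 26 genes fell and 2 rose (median -0.12; 4 rose with the block). INSIG1, which restrains sterol synthesis and is itself a sterol-regulated gene, averaged 492 ± 5.93 CPM in GFP low and 679 ± 15.1 CPM in GFP high libraries (log2 fold change -0.46 ± 0.02, adjusted p = 2.2e-13). FDFT1, squalene synthase, fell by 0.29 (adjusted p = 2.0e-10). Of 22 genes of the unfolded protein response 10 fell and 5 rose (2 by DESeq2, and 2 or 3 without any 1 library other than the GFP high library of set 1). HSPA5, the chaperone BiP, held 1026, 1005 and 1007 CPM in GFP low libraries and 1244, 1241 and 1243 CPM in GFP high libraries (-0.30 ± 0.01, adjusted p = 1.6e-12). HSP90B1, another chaperone of the same compartment, rose by 0.26 ± 0.02 (adjusted p = 6.5e-08). In glycolysis PFKFB3, which makes the activator of phosphofructokinase, averaged 57.9 ± 2.11 CPM in GFP low and 40.3 ± 0.43 CPM in GFP high libraries (0.52 ± 0.04, adjusted p = 4.1e-09). PKM, pyruvate kinase, fell by 0.19 (adjusted p = 3.1e-06). NQO1, a target of NRF2, fell by 0.22 (adjusted p = 2.2e-06).

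Over all tested genes 12.9% rose and 13.5% fell at 72 h, and several of the counts in this paragraph lie near those shares. With the library set as a block, 3044 of 16474 genes rose and 2999 fell. In the interferon response 5 of 26 rose (3 without the GFP high unnumbered or the GFP low set 1 library) and 1 fell (3 with the block). SAMD9L, which restrains growth, rose by 1.36 ± 0.15 (adjusted p = 3.8e-07) and OAS1, a sensor of double-stranded RNA, by 1.05 ± 0.18 (adjusted p = 0.00017). Among 25 chromatin writers and erasers 6 rose (10 with the block) and 7 fell. The DNA methyltransferase DNMT1 rose by 0.21 ± 0.03 (adjusted p = 1.5e-06). DNMT3A held 1.17, 0.559 and 0.642 CPM in GFP low libraries and 0.305, 0.362 and 0.215 CPM in GFP high libraries (1.46 ± 0.33, adjusted p = 0.0018). The demethylase cofactor ARID5B fell by 0.51 (adjusted p = 4.2e-07). Of 19 immediate early genes 3 rose and 5 fell (8 with the block), with EGR1 at -0.54 ± 0.06 (adjusted p = 7.8e-07). In the integrated stress response 5 of 26 rose (8 with the block) and 7 fell, with WARS1, a transfer RNA synthetase, at -0.33 ± 0.02 (adjusted p = 7.6e-10) and CEBPB at 0.39 ± 0.06 (adjusted p = 3.2e-05). For heat shock proteins it was 1 of 16 higher (2 with the block) and 5 lower (10 with the block, and 3 without either unnumbered library, the GFP high set 1 library or the GFP low set 2 library), for fatty acid metabolism 3 of 17 higher and 6 lower. For ribosome assembly it was 2 of 45 higher (6 with the block) and 14 lower (9 without the GFP high unnumbered library). NRF2 targets had 3 of 19 higher (5 with the block) and 7 lower. Genes of glycolysis and hypoxia had 5 of 29 higher (9 with the block) and 7 lower (4 without the GFP high unnumbered or set 1 library). G1 cyclins, CDKs and inhibitors had 5 of 22 higher (8 with the block, and 3 without the GFP high set 1 or GFP low set 2 library) and 4 lower (2 without the GFP low unnumbered or GFP high set 2 library). The 12 B lineage markers had 3 higher (5 with the block) and 5 lower. FCRLA, an intracellular Fc receptor-like protein, was at 72.9 ± 0.49 CPM in GFP low and 128 ± 2.05 CPM in GFP high libraries (-0.81 ± 0.03, adjusted p = 2.1e-15), and MS4A1, or CD20, at 439 ± 14.9 CPM in GFP low and 614 ± 14.3 CPM in GFP high libraries (-0.48 ± 0.03, adjusted p = 1.3e-11).

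Markers of other cell types were low. Of 15 T cell markers 8 were tested and 7 fell (4 without the GFP high unnumbered library), with CD8A and CD4 at 0 in all 6 libraries. The list summed to 41.9 to 45.4 CPM in GFP low and 59.6 to 62.5 CPM in GFP high libraries. TRBC2 and the kinase LCK made up much of it. TRBC2 had 655, 535 and 889 counts in GFP low and 721, 726 and 1209 counts in GFP high libraries. Its log2 ratios of GFP low over GFP high within sets were -0.13, -0.14 and -0.16. LCK was at 14.4 ± 0.85 CPM in GFP low and 23.5 ± 0.07 CPM in GFP high libraries (log2 fold change -0.70 ± 0.08, adjusted p = 3.6e-07). Myeloid markers summed to 5.07 to 5.77 CPM in GFP low and 4.06 to 5.10 CPM in GFP high libraries, with S100A8, FCGR3A and MPO at 0, and none of 4 tested passed in edgeR. Erythroid markers summed to 10.1 to 12.2 CPM in GFP low and 8.99 to 9.71 CPM in GFP high libraries, with HBA1, HBA2, ALAS2 and AHSP at 0, and 1 of 3 tested rose. Epithelial, kidney and fibroblast markers summed to 3.57 to 4.73 CPM in GFP low and 4.28 to 4.71 CPM in GFP high libraries, with KRT19, COL1A2, COL3A1 and PAX8 at 0, and of 3 tested 1 rose and 1 fell. These sums lay far below the 4626 CPM or more of the B lineage list, and their part in the results was not tested.

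The 72 h difference was set against those at 24 and 48 h by the test of the difference between times. It differed from the 24 h value for 6894 genes, 41.8% of those tested (22.2% higher and 19.6% lower), and from the 48 h value for 1486 genes, 9.02% (5.19% higher and 3.83% lower). With the library set as a block the second count was 3331. Log2 fold changes followed gene length, summed over exons, at 24 h (Spearman rho 0.47 across 10087 genes) far more than at 72 h (0.05). With the length and GC trend removed, the count against 24 h was 7146. Of the 6894 genes, 5485 were called in the same direction in that fit and 40 in the opposite one. All 79 ribosomal protein genes were then still called higher at 72 h than at 24 h, with a median shift of 0.59 in place of 0.71, and 46 of 52 histone genes, with 1.16 in place of 1.43. Of the genes called at 72 h, 50.3% were also called at 48 h, which is 55.7% of the 48 h calls, with 1973 in the same and 214 in the opposite direction. The genes called at 72 h and at 24 h were 78.5% of the 72 h calls and 35.8% of the 24 h calls, with 2693 in the same and 718 in the opposite direction. Across the 12143 genes that averaged 1 CPM or more at 72 h, the log2 fold changes correlated at a Spearman rho of 0.45 between 72 and 48 h and of 0.36 between 72 and 24 h; genes are not independent replicates, and the values share the pairing of the library sets. In all, 1387 genes were called in the same direction at all 3 times, and 580 were called at 72 h alone.

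PRDM1, AFF1, RAB27B, DAB2IP and HRK were higher in GFP low cells at each time. PRDM1 had log2 fold changes of 1.41 at 24 h, 1.34 at 48 h and 1.47 at 72 h. The differences between times did not pass (adjusted p = 0.41 against 24 h and 0.19 against 48 h). LTB was lower at each time, at -1.09, -1.42 and -1.46. The light zone list fell further: 11 of its 20 genes were called lower at 72 h than at 48 h and none higher (edgeR), with a median shift of -0.20. CD83 had -0.46 at 24 h, -0.33 at 48 h and -0.87 at 72 h, and the step from 48 h was -0.54 ± 0.03 (adjusted p = 1.4e-11). TRAF1 had 0.15, -0.14 and -0.59, with a step from 48 h of -0.45 ± 0.05 (adjusted p = 6.9e-06). In the NF-kB list 13 of 32 were called lower at 72 h than at 48 h and 1 higher, and 22 were lower than at 24 h and 3 higher. BIRC3 had 0.26, -0.02 and -0.29, with a step from 48 h of -0.27 ± 0.04 (adjusted p = 7.5e-05). BCL6 had 0.14 at 24 h, -0.05 at 48 h and 0.36 at 72 h. SLAMF7 was level at 48 h (0.00) and lower at 72 h, a step of -0.95 (adjusted p = 1.9e-06), and VCAM1 had a step of the same size (-0.95, adjusted p = 0.0058).

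**Figure D5:**
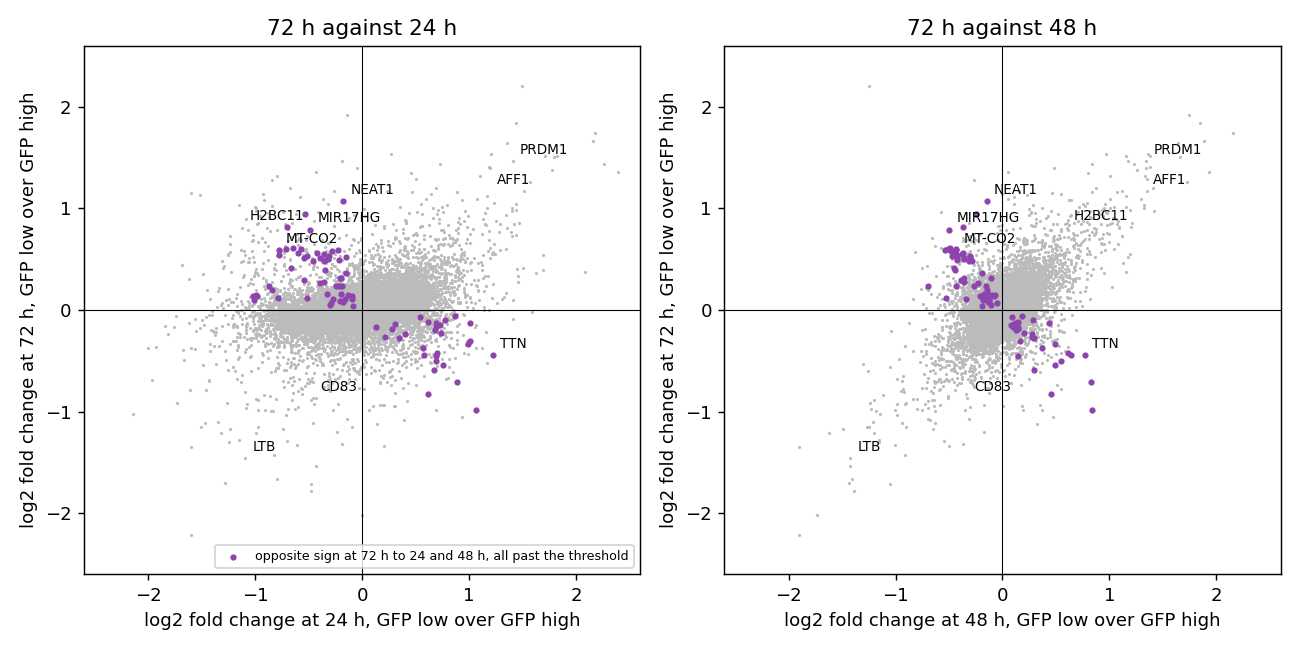
Log2 fold changes of GFP low over GFP high at 72 h on the vertical axes against those at 24 h (left) and 48 h (right), for up to 12143 genes that averaged 1 CPM or more at 72 h; 7 and 5 genes lie outside the axes. Purple points mark genes called at every time whose 72 h sign was opposite to both others and whose differences were called, most of the labelled ones in the upper left quadrant, such as NEAT1 and MT-CO2, with TTN in the lower right.

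A set of 84 genes was called at all 3 times with a 72 h direction opposite to both earlier ones and with both differences called. Of these, 55 were higher and 29 lower in GFP low cells at 72 h, and 15 lie on the mitochondrial genome. Fold changes at 24 h followed gene length, and the set was not recounted with the length and GC trend removed. NEAT1 had log2 fold changes of -0.18 at 24 h, -0.15 at 48 h and 1.07 at 72 h. MIR17HG, the host transcript of the miR-17-92 cluster, averaged 78.9 ± 1.72 CPM in GFP low and 45.6 ± 1.67 CPM in GFP high libraries at 72 h (0.79 ± 0.04, adjusted p = 6.7e-13), after -0.49 at 24 h and -0.50 at 48 h; it was named after its value was seen. TTN, the giant muscle protein, went the other way, at 1.22 at 24 h, 0.77 at 48 h and -0.44 at 72 h (adjusted p = 1.9e-07). With the length and GC trend removed the TTN value at 72 h was -0.21, the step from 24 h -1.05 in place of -1.67 and the step from 48 h -0.78 in place of -1.21. SMARCA4 had 0.50 at 24 h, 0.11 at 48 h and 0.20 at 72 h, and its step from 24 h was -0.29 ± 0.04 (adjusted p = 6.7e-06). The SMARCA4 step was not checked with the length and GC trend removed, and fold changes at 24 h followed gene length. Over the 28 BAF subunit genes the median step from 24 h was -0.04, and 0.03 with that trend removed.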

How the data were processed

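Total RNA of Raji cells was made into ribosomal RNA-depleted libraries (KAPA RNA HyperPrep with RiboErase), per the labels' protocols. The authors deposited raw counts, whole numbers of reads in the exons of each gene with no normalization, in the layout of featureCounts per the file headers. The submitters' processing notes name FastQC, STAR, featureCounts, Subread, R 4.2.1 and hg38; the sources used here give no annotation release, strand setting or treatment of multi-mapping reads. Without strand, reads of overlapping and antisense genes cannot be told apart. ANK2 was not read, since 3 damaged lines hold it, which left 60707 genes. Columns name the group and the library set, not which sample; D3 columns were taken as 72 h.

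Counts were fitted with edgeR 4.0.16 in R 4.3.3: filterByExpr kept 16474 genes, TMM scaled the 18 libraries (27257876 to 55419458 counts), and quasi-likelihood tests used 6 group means with 12 residual degrees of freedom, two-sided, with Benjamini-Hochberg adjustment over all tested genes at 0.05. SEs were derived from each log2 fold change and its F statistic. The steps were tested on simulated data drawn from these libraries. Replicates differed by more than sampling noise (median chi-square ratios of 1.48 to 2.95 at 72 h). Deviations from group means correlated at 0.22 to 0.55 for 45 library pairs of the same set, so the set names, which come from the columns, pair the libraries. The median of -0.21 for 90 pairs of different sets follows from centring on means of 3 libraries and adds no separate support. The fit with the set as a block is given where it changes a call or moves a count by over 1.5 times. Alternatives were DESeq2 1.42.0, RLE scaling, other filters, removal of a length and GC trend, a 1.2-fold test, the 6 libraries alone, library sizes without the mitochondrial genome and leaving out each library.

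The comparison, the 39 gene lists and the tests were chosen with earlier results of these data known. Named genes are SMARCA4, per direction the 15 largest fold changes, 10 smallest p and 8 largest CPM differences among called genes averaging 1 CPM or more with a known protein-coding symbol and no overlap, 5 noncoding genes and, for differences between times, 5 genes by the same filters, and up to 4 members per direction and the largest change in each list; SMARCA2, TNF, NFKB1, REL, BIRC3, MT-ND6, MT-RNR1, MT-RNR2, NEAT1, MALAT1, RN7SL1, MIR17HG and the genes under the closing observations were chosen after their values were seen. Some genes that the rule names are not reported here. Promoters are from RefSeq (GRCh38.p14), matched by symbol for 10115 of 16431 tested symbols.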

Additional observations from a re-analysis of the deposited data

Results flagged for a closer look

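The difference between GFP low and GFP high cells at 72 h was tested against that at the earlier times, and differed from 24 h for 6894 genes and from 48 h for 1486 genes (edgeR, adjusted p under 0.05). The share of counts from the mitochondrial genome went opposite ways, higher in GFP low cells in every library set at 72 h and lower in every set at both earlier times. Its 72 h difference exceeded that at 24 h by 2.03 percentage points and that at 48 h by 1.97 points, and this contrast of the share was not tested.

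The genes below were called in opposite directions at 72 h and at the earlier time, with the difference between times called and at least 1 on the log2 scale. Against 48 h, the 72 h log2 fold change was higher by 1.29 for MIR17HG, 1.22 for NEAT1, 1.11 for MT-ATP6 and 1.02 for MT-CO2, and that of TTN differed by -1.21. Against 24 h, it was higher by 2.12 for RN7SL1, 1.94 for H2BC11, 1.85 for H3C12, 1.76 for H4C3, 1.37 for MT-CO2, 1.28 for MIR17HG, 1.26 for MT-ATP6, 1.25 for NEAT1 and 1.05 for RPS21. It was lower against 24 h for TTN, by a difference of -1.67, for SLAMF7 (-1.25) and for FCRL3 (-1.12).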

How the results depend on the processing

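The count of 4345 genes at 72 h ranged from 3413 to 4019 when 1 library was left out, was 3827 by DESeq2 and 6043 with the library set as a replicate block, and fell to 639 in the test against 1.2-fold. With the length and GC trend removed it was 4937, and 3831 of the 4345 genes were then called, all in the same direction. The count for 72 h against 24 h (6894) ranged from 6463 to 6604 without 1 library, was 8349 with the replicate block and 2838 in the 1.2-fold test. The count for 72 h against 48 h (1486) ranged from 1120 to 1451 without 1 library and moved to 3331 with the replicate block, 3044 with the block and the length and GC trend removed, and 116 in the 1.2-fold test; the cause of the higher counts was not tested. The mitochondrial share difference stayed between 1.12 and 1.23 points under its alternatives, 1.12 to 1.21 without 1 library; within sets its exact permutation p was 0.25, the smallest that 3 pairs allow. No named gene that was called at 72 h changed direction under any alternative run. Direction was not compared for named genes that were not called. In the 1.2-fold test 184 values of named genes no longer passed. This was 23 without the GFP low library of set 2 and at most 19 under any other alternative. Beside those given with the results, the replicate block ended the calls of ACTB (adjusted p = 0.20) and EEF1A1 (adjusted p = 0.72). Fold changes rose with GC content (rho 0.25 over 10087 genes), the medians running from -0.04 in the lowest to 0.06 in the highest of 4 equal GC groups. Depth limits genes near 1 CPM. Calls and SEs cover only the spread among these libraries, which may be technical.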

Other observations

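Several families of transcripts outside the lists were described after their values were seen, so they are given as counts only. Over all tested genes, 12.9% were higher and 13.5% lower at 72 h. Family medians were not taken with the length and GC trend removed, and fold changes at 24 h followed gene length. Of 25 small nucleolar RNA host genes tested, 17 rose in GFP low cells at 72 h and none fell in edgeR, with a median log2 fold change of 0.13, against -0.03 at 48 h and -0.20 at 24 h. SNHG15 averaged 153 ± 2.72 CPM in GFP low and 119 ± 1.00 CPM in GFP high libraries (0.36 ± 0.02, adjusted p = 3.3e-10), and SNHG3 averaged 426 ± 3.04 CPM in GFP low and 359 ± 5.12 CPM in GFP high libraries (0.25 ± 0.02, adjusted p = 9.9e-09). Of 127 snoRNA genes, 21 were higher and none lower in edgeR (median 0.16, against -0.31 at 48 h and -0.28 at 24 h). Of 80 snRNA genes 21 rose and 2 fell, and of 20 mitochondrial tRNA genes 7 rose and none fell in edgeR. Small RNAs are poorly captured by such libraries, and reads of a snoRNA and of its host cannot be told apart in these counts.

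Immunoglobulin constant genes split by chain: of 12 tested, 7 rose and 2 fell. IGHA1, the constant region of IgA1, averaged 31.3 ± 0.68 CPM in GFP low and 11.8 ± 0.77 CPM in GFP high libraries (log2 fold change 1.41 ± 0.07, adjusted p = 2.6e-12), IGHG2 averaged 5.39 ± 0.74 CPM in GFP low and 2.43 ± 0.43 CPM in GFP high libraries (1.12 ± 0.13, adjusted p = 8.5e-07), and IGHM, the chain at the highest CPM of these, averaged 2869 ± 118 CPM in GFP low and 2470 ± 103 CPM in GFP high libraries (0.22 ± 0.04, adjusted p = 0.00012). The lambda genes IGLC2 (-0.68 ± 0.08) and IGLC3 (-0.89 ± 0.17) were the 2 that fell; these genes share long stretches of sequence, so their counts are uncertain. FCRL genes, a family of Fc receptor-like proteins, had 3 of 7 lower and none higher in edgeR; FCRL3 averaged 12.3 ± 0.32 CPM in GFP low and 23.5 ± 0.54 CPM in GFP high libraries (-0.93 ± 0.04, adjusted p = 1.8e-13). Clustered protocadherins had 5 of 23 lower, beside 13.5% of all tested genes. Their median was -0.38 at 72 h, against 0.16 at 48 h and 0.82 at 24 h, all without removal of the length and GC trend.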
